A study of Mus musculus with 10 samples.

Results

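The genes described here encode subunits of the NMDA receptor, and they are 6 of the 18216 genes with a value in the prefrontal cortex of mice at postnatal day 10: Grin1, Grin2a, Grin2b, Grin2c, Grin2d and Grin3a. They were selected by symbol as a gene family, with the values of an earlier look at the same mice in view, in which Grin2c stood near the top of the ranking of genes by genotype. For that reason the differences between genotypes in these 6 genes are given as a description, without p-values. The mice were males of the C57BL/6N strain, of which 5 were heterozygous for Arid1b (HT) and 5 were wild type (WT), and each mouse gave 1 library. The HT mice carry 1 copy of Arid1b in which cutting around exon 5 with Cas9 nickase left a deletion with a TT insertion that truncates the protein, and the mice of the study came from crosses of HT males with WT females. All cells of the HT mice carry the mutation, and all HT mice come from 1 edited line, so the data describe that line.

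NMDA receptors are glutamate-gated cation channels built of 4 subunits. GluN1, the product of Grin1, is present in every receptor and binds the co-agonist glycine or D-serine, whereas the GluN2 subunits (Grin2a to Grin2d) bind glutamate and set the kinetics of the channel, and GluN3 subunits such as that of Grin3a bind glycine and lower calcium entry. In the forebrain Grin2b dominates before and after birth and Grin2a rises during the postnatal weeks, a change known as the GluN2B to GluN2A switch. Grin2c is best known from cerebellar granule cells and thalamus and, in cortex, from astrocytes, Grin2d from interneurons and early brainstem and diencephalon, and Grin3a from the early postnatal cortex.

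In the GRCm38 annotation, the 6 genes are protein-coding, lie on 6 different chromosomes and are all on the minus strand. Grin1 (ENSMUSG00000026959) spans chr2:25291181-25319187, Grin2a (ENSMUSG00000059003) chr16:9567898-9995560 and Grin2b (ENSMUSG00000030209) chr6:135713233-136173511. Grin2c (ENSMUSG00000020734) spans chr11:115249169-115267243, Grin2d (ENSMUSG00000002771) chr7:45831883-45878378 and Grin3a (ENSMUSG00000039579) chr4:49661611-49845744. Of the words of 31 bases in the transcripts of Grin2a, 12.1% also occur in transcripts of other genes, among them the predicted gene Gm7328, whereas for the other 5 genes that share was at most 0.293%. How far this moves the Grin2a values was not tested. Of the genes with a value here, Gm26653 overlaps exons of Grin2b and Gm45441 those of Grin2d, each on the opposite strand. The libraries were made with a stranded kit, but whether the counting used strand is not given in the sources used here.

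RefSeq promoter windows of build GRCm38.p6, from 250 bases before to 50 bases after a gene's start, were at hand for Grin1, Grin2c and Grin2d. The windows of Grin2c, the member whose values separated the genotypes, and of Grin1, the subunit common to all receptors, are shown so that they can be read beside each other. Capitals mark the GC box GGGCGG and the E-box CACGTG on either strand. The window of Grin2c is chr11:115267194-115267493 and that of Grin1 is chr2:25319138-25319437, both on the minus strand and written 5′ to 3′.
Grin2c: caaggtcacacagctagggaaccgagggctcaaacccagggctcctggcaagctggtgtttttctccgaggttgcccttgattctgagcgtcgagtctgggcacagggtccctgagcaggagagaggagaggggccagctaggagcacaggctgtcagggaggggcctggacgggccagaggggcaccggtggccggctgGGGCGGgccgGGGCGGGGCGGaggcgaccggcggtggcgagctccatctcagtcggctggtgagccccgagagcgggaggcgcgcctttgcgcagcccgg
Grin1: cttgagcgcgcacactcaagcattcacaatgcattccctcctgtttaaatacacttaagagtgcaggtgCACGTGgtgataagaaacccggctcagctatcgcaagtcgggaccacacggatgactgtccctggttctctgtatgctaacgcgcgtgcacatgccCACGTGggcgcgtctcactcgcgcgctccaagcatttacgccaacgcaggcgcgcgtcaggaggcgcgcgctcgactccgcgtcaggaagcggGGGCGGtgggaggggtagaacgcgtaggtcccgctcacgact
The Grin2c window holds 3 GC boxes, of which the last pair share a base, and 0 E-boxes, and 70.0% of its bases are G or C. The Grin1 window holds 1 GC box and 2 E-boxes with 60.7% G or C, and the Grin2d window holds neither motif with 56.0%. The Grin2d window, chr7:45866632-45866931, lies inside the annotated span of the gene, which ends at 45878378. The windows of Grin1 and Grin2c lie at the 5′ ends of their annotated spans. Over all 32851 windows of the same length, 35.7% hold a GC box and 7.15% hold an E-box. These matches describe letters in the windows only.

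The deposited values are Salmon estimates divided by size factors, called normalised counts here, and their totals lay between 31106330 and 32106791 per mouse. The totals do not give sequencing depth, which is unknown, so the precision of each value rests on the spread between mice alone. Arid1b itself, a subunit of the BAF chromatin-remodelling complex, had 1767 to 1987 normalised counts in HT mice and 2662 to 3018 in WT mice, so each library matched its label. HT2 stood apart in the share of mitochondrial transcripts, at 8.43% of the normalised counts against 5.15% to 6.76% in the other 9 mice. Of 16781 genes with a mean of at least 10, 3 passed a limma adjusted p under 0.05 (0.0179%), namely Tmem181b-ps and Dynlt1b, higher in HT (0.0119%), and Arid1b, lower (0.00596%).

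All 6 subunit genes passed the filter on low values. Of these 6, 0 had a limma adjusted p under 0.05, beside 0.0179% of all genes, and 1 (Grin2c) had an unadjusted p under 0.05, beside 9.23% of all genes, with 4.71% higher and 4.52% lower in HT. Grin2c was also the 1 gene of the 6 whose HT values all lay above its WT values, which was so for 0.703% of all genes, and 1.62% of all genes had no overlap in either direction. The median log2 fold change of the 6 genes was -0.07, and that of all genes tested was -0.0035. Since the genotype contrast entered the choice of these genes, nothing is read from these counts. A seventh gene of the family, Grin3b, is not among the 6 and had 2.28 to 14.3 normalised counts over the 10 mice, below the filter.

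**Figure D1:**
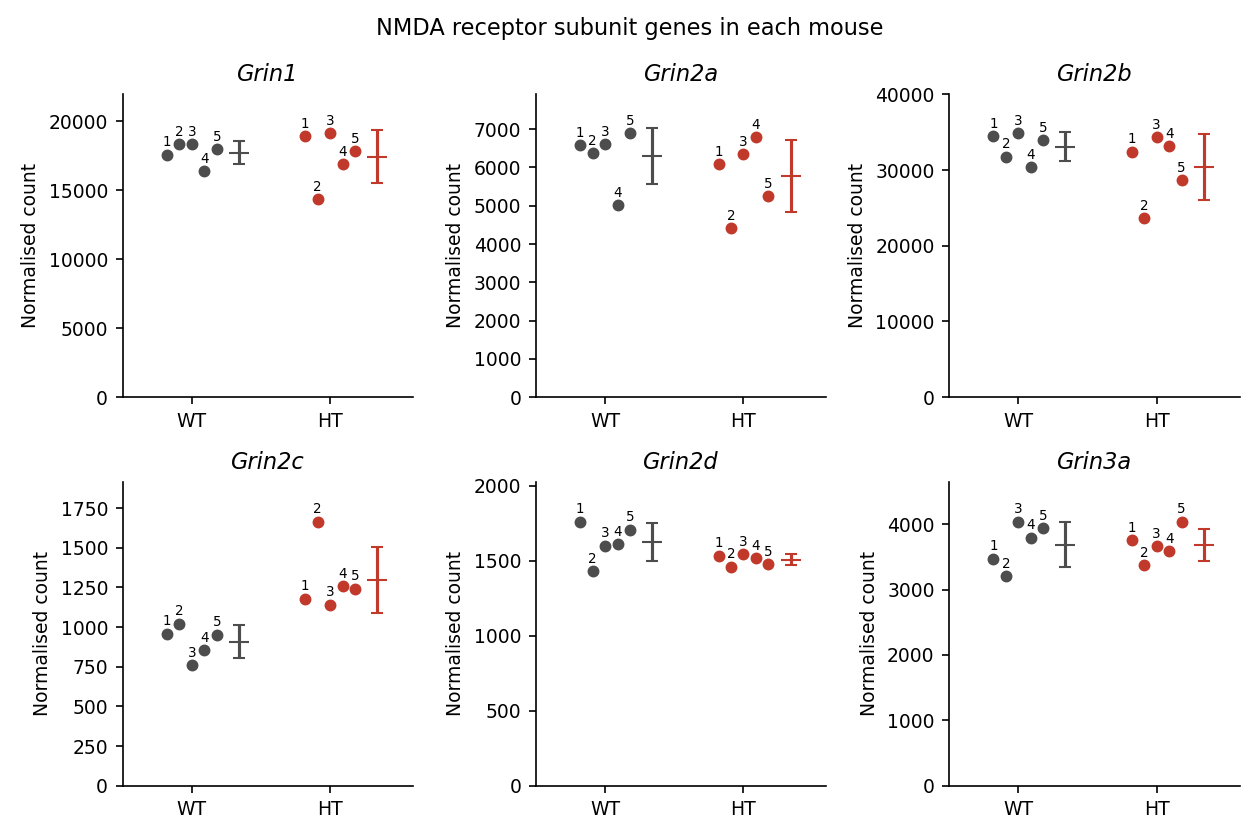
Normalised counts of the 6 NMDA receptor subunit genes (vertical axes from 0) in each WT and HT mouse. Each dot is 1 mouse with its replicate number, and the bar beside it is the mean ± SD of 5 mice; Grin2c is the panel without overlap (HT 1142 to 1665, WT 758 to 1021), and HT2 is the lowest dot for Grin1, Grin2a and Grin2b.

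Levels were first compared between the subunits, as normalised counts per kb of annotated exon (the union of all exons of a gene), over the 10 mice of both genotypes. Grin1 was the highest at 1813 ± 146 per kb (SD, n = 10), a level above that of 96.3% of all genes tested. Grin2b followed at 1279 ± 139 per kb (SD, n = 10), Grin2a at 337 ± 47.3, Grin3a at 300.2 ± 23.0, Grin2d at 235 ± 16.1 and Grin2c at 219 ± 51.1 per kb. On this scale the transcripts of the GluN1 subunit and of the early GluN2B subunit therefore stood well above those of the other 4 genes.

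Each gene was compared with its next neighbour in that order by an exact two-sided sign-flip permutation test over mice, adjusted over the 5 pairs. Grin1 exceeded Grin2b per kb by 0.51 ± 0.10 on the log2 scale (SD, higher in 10 of 10 mice, exact p = 0.00195, adjusted 0.00326). Grin2b exceeded Grin2a by 1.93 ± 0.09, which is 3.81-fold (SD, 10 of 10 mice, exact p = 0.00195, adjusted 0.00326). Grin3a exceeded Grin2d by 0.35 ± 0.12 (SD, 10 of 10 mice, exact p = 0.00195, adjusted 0.00326). The p of 0.00195 is the smallest that 10 mice can give. Grin2a and Grin3a could not be told apart beyond their spread on this length (difference 0.16 ± 0.23, 7 of 10 mice, exact p = 0.0703, adjusted 0.0879), nor could Grin2d and Grin2c (0.13 ± 0.39, 6 of 10 mice, exact p = 0.326, adjusted 0.326). That last comparison pools genotypes that differed in Grin2c, since Grin2d was the higher in 5 of 5 WT mice, with a mean difference of 0.44, and in 1 of 5 HT mice.

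The order depends on the length that is used. The annotated transcripts of Grin2b differ widely in length. Its exons cover 24.8 kb and its longest transcript 24.1 kb, while its longest coding sequence is 4.45 kb and the median of its protein-coding transcripts 1.58 kb. Per kb of the longest coding sequence Grin2b (7147 ± 779) stood above Grin1 (6113 ± 491), and per kb of the median transcript the gap widened to 20086 ± 2190 against 4371 ± 351. Grin2a and Grin3a, not told apart per kb of exon, differed with the other 3 lengths, with Grin2a the higher for the median transcript (1.27 on the log2 scale) and the coding sequence (0.335) and the lower for the longest transcript (-0.26). Grin2d exceeded Grin2c with these 3 lengths by 0.34 to 0.44, and all of these differences passed the exact permutation test after adjustment. Grin2b stood above Grin2a, and Grin3a above Grin2d, with each of the 4 lengths, and Grin2c was the lowest of the 6 with each of them.

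**Figure D2:**
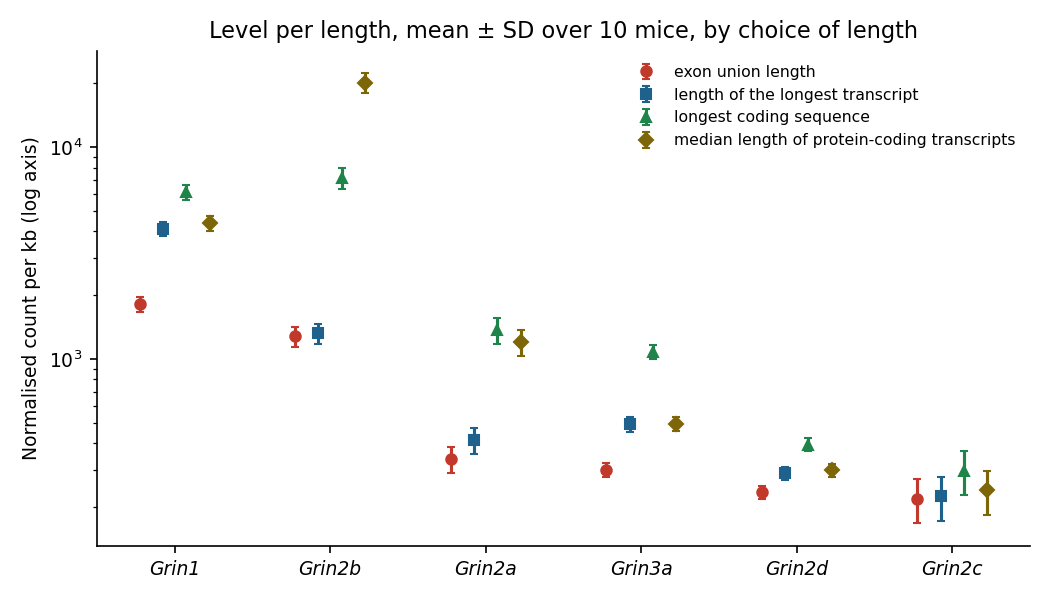
Normalised count per kb (log axis) of each subunit gene, as mean ± SD over 10 mice, for 4 ways of setting a gene's length. Grin1 and Grin2b exchange places with the coding length and with the median transcript length, and Grin2c stays lowest, between 219 and 297 per kb.

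Among the 4 GluN2 genes, summed per kb of exon, Grin2b made up 63.2% ± 1.14 in WT mice and 60.1% ± 3.30 in HT mice (SD, 5 mice per genotype). Grin2a made up 16.6% ± 1.16 in WT and 15.8% ± 1.19 in HT, and Grin2d 11.6% ± 0.83 and 11.2% ± 0.88. The share of Grin2c was 8.58% ± 1.05 in WT and 12.9% ± 3.47 in HT. HT2 alone had 18.9% for Grin2c and 54.5% for Grin2b, and without HT2 the HT means were 11.4% ± 1.07 and 61.5% ± 1.20 (SD, n = 4). Per kb of exon, Grin2c stood below Grin2d in the WT mean (180 against 244) and above it in the HT mean (258 against 226). With each of the other 3 lengths Grin2c stood below Grin2d in the HT mean as well (265 against 278 for the longest transcript, 349 against 380 for the coding sequence and 283 against 287 for the median transcript). The shares depend on the length in the same way. Per kb of the longest coding sequence the Grin2b share was 78.1% in WT and 76.9% in HT and the Grin2c share 2.57% and 4.05%. Per kb of the median transcript they were 92.2% and 91.7% for Grin2b and 0.877% and 1.40% for Grin2c, so the Grin2c share had a higher mean in HT with each length and its size depended on the length.

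Grin1, the subunit required for every NMDA receptor, had 18953, 14377, 19151, 16888 and 17836 normalised counts in HT1 to HT5 and 17598, 18365, 18346, 16370 and 17977 in WT1 to WT5. The groups overlapped, HT1 and HT3 lay above all WT mice, and HT2 was the lowest of all 10 mice. The log2 fold change (HT minus WT on log2(normalised count + 1), limma) was -0.03 (SE 0.07), and without HT2 it was 0.04. In tissue of this kind, fewer cells of a type and less RNA per cell cannot be told apart.

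Grin2b, the GluN2 subunit that dominates the immature forebrain, had 32453, 23688, 34353, 33126 and 28631 normalised counts in HT1 to HT5. In WT1 to WT5 it had 34456, 31777, 34893, 30381 and 33999. HT2 and HT5 lay below all WT mice, and HT1, HT3 and HT4 lay within the WT range. The log2 fold change was -0.13 (SE 0.09), and without HT2 it was -0.04.

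Grin2a, the subunit that rises as synapses mature, had 6090, 4409, 6349, 6788 and 5244 normalised counts in HT1 to HT5 and 6588, 6378, 6612, 5023 and 6897 in WT1 to WT5. HT2 was again the lowest of all mice, and WT4 was the next lowest. The log2 fold change was -0.13 (SE 0.11), and -0.04 without HT2. Mean HT levels of Grin2a and Grin2b stood at 91.7% and 92.0% of WT, and for both the estimate without HT2 was less than its SE with all mice.

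The Grin2b to Grin2a ratio, which follows the developmental switch and does not depend on the size factor of a library, was 5.33, 5.37, 5.41, 4.88 and 5.46 in HT1 to HT5. In WT1 to WT5 it was 5.23, 4.98, 5.28, 6.05 and 4.93. These are ratios of normalised counts, not per length. The HT mice lay inside the WT range except HT4, the lowest of all 10, and WT4 was the highest. The HT mean was 5.29 ± 0.23 and the WT mean 5.29 ± 0.45 (SD, n = 5 each). The difference on the log2 scale was 0.00 (SE 0.06), and it was -0.00 without HT2. Over all 10 mice the ratio had a coefficient of variation of 6.37%, against 10.9% for Grin2b and 14.0% for Grin2a alone, so both genes moved up and down together between mice.

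**Figure D3:**
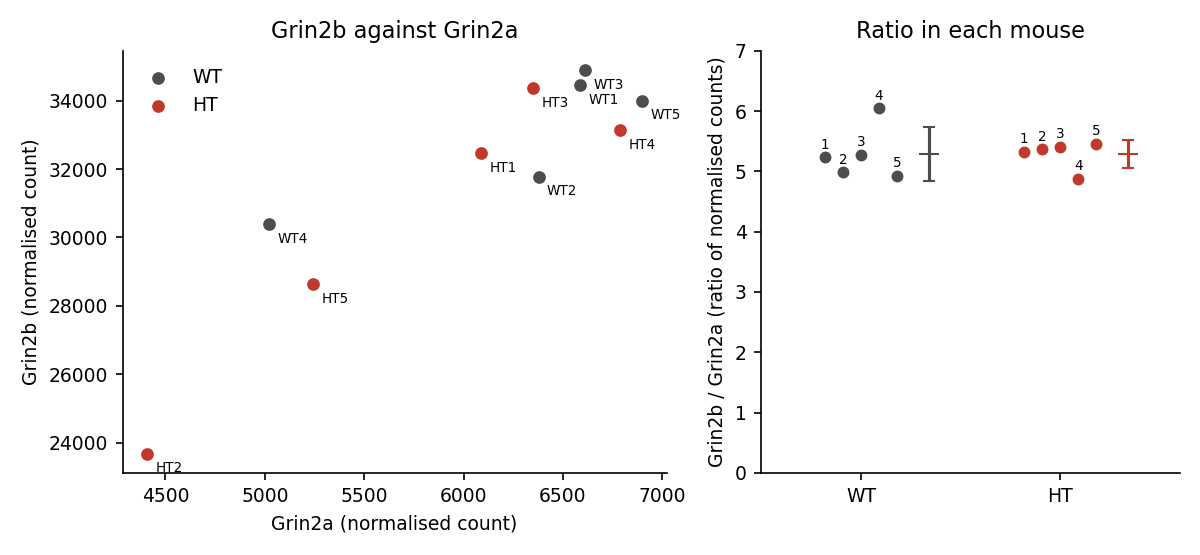
Left, normalised counts of Grin2b against Grin2a, 1 dot per mouse; right, their ratio in each mouse with the mean ± SD of 5 mice per genotype. The dots rise together from HT2 (4409 and 23688) to WT3 and WT5, and the mean ratio is 5.29 in both genotypes.

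Grin2c, whose product gives receptors that are less sensitive to magnesium, had 1179, 1665, 1142, 1258 and 1242 normalised counts in HT1 to HT5. In WT1 to WT5 it had 958, 1021, 758, 855 and 952. All 5 HT mice lay above all 5 WT mice, HT2 was the highest by a wide margin, and WT3 was the lowest. The HT mean of 1297 ± 211 was 142.7% of the WT mean of 909 ± 103 (SD, n = 5 each). The log2 fold change was 0.51 (SE 0.10), which placed the gene 12th of 16781 by p and 6th from the top among genes higher in HT. These are the values behind its place in the choice of genes. Without HT2 the log2 fold change was 0.41, and it stayed between 0.41 and 0.55 when each mouse in turn was left out. Relative to Grin1 in the same mouse, Grin2c was 0.0764 ± 0.0228 in HT and 0.0513 ± 0.00574 in WT as a ratio of normalised counts, and the 5 HT ratios lay above the 5 WT ratios. Grin1 differed little between genotypes (log2 fold change -0.03). The ratios therefore restate the Grin2c values that entered the choice of genes, and nothing further is read from them. HT2, with the highest Grin2c and the lowest Grin1, had a ratio of 0.116, and without HT2 the HT mean was 0.0665 ± 0.00681 (SD, n = 4).

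Astrocytes are a known site of Grin2c expression in the forebrain, so 21 astrocyte marker genes were set beside it. The summed normalised count of these markers was 108670 to 140230 in HT mice and 98927 to 115220 in WT mice, with HT5 and HT2 the highest of all mice and WT3 the lowest. All 21 markers had a positive log2 fold change, from 0.00 to 0.67 with a median of 0.21. Markers of other glia were also all positive, namely 10 of 10 of microglia (median 0.16) and 10 of 10 of the oligodendrocyte lineage (median 0.24). Of the 21 astrocyte markers, 0 had a limma adjusted p under 0.05. At an unadjusted p under 0.05, 11 of the 21 were higher in HT and 0 lower, beside 4.71% and 4.52% of all genes. The median over all genes tested was -0.0035. Gfap, the marker with the value of 0.67, had 13936 normalised counts in HT5 and 3572 to 5007 in the other HT mice, against 3072 to 3458 in WT mice. Without HT5 the log2 fold changes of the markers lay between -0.01 (S100b) and 0.31 (Gfap), below the 0.52 of Grin2c in the same mice. None of the 21 markers was at 0 in any mouse.

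The level of Grin2c was then expressed relative to the mean of the 21 markers in the same mouse, as a difference of log2 values. It was -1.26, -1.12, -1.30, -1.32 and -1.53 in HT1 to HT5 and -1.57, -1.51, -1.73, -1.65 and -1.53 in WT1 to WT5. HT1 to HT4 lay above all WT mice, and HT5 lay among them. The mean difference between HT and WT was 0.29 (SE 0.08), and 0.25 without HT2, beside 0.51 for Grin2c alone and 0.21 (SE 0.09) for the mean of the markers alone. In HT1 and HT3 the mean of the markers (11.47 and 11.46 on the log2 scale) lay within the WT range of 11.30 to 11.51, while Grin2c lay above the WT range in both. The part of astrocyte abundance in the Grin2c values was not tested.

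**Figure D4:**
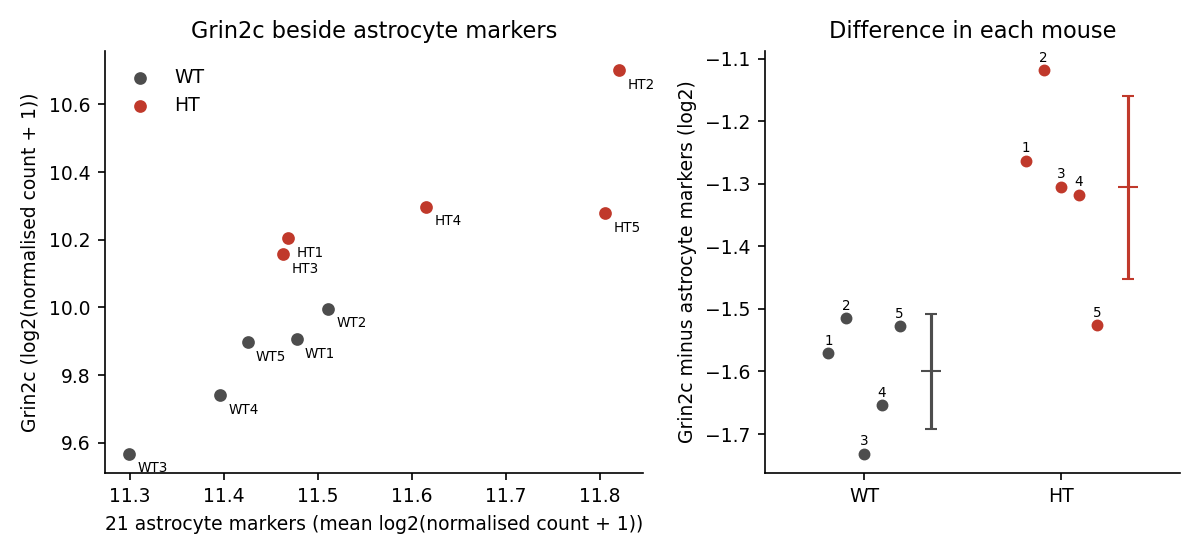
Left, Grin2c against the mean of 21 astrocyte markers, both as log2(normalised count + 1), 1 dot per mouse; right, their difference in each mouse with the mean ± SD of 5 mice per genotype. HT1 and HT3 share the marker level of WT mice and lie above them in Grin2c, and HT5 (-1.53) lies among the WT differences (-1.73 to -1.51).

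Grin2d, which gives slowly closing receptors and is found in interneurons, had 1535, 1461, 1544, 1518 and 1479 normalised counts in HT1 to HT5 and 1762, 1430, 1602, 1613 and 1709 in WT1 to WT5. All 5 HT mice lay below the WT mean, but WT2 lay below all HT mice, so the groups overlapped. The log2 fold change was -0.10 (SE 0.06), and -0.09 without HT2. The HT mice were the least spread of all members, with a coefficient of variation of 2.39% against 7.82% in WT mice. The 11 interneuron markers, among them Gad1, Gad2 and Sst, summed to 23215 to 25337 in HT and 22239 to 25907 in WT, and their median log2 fold change was 0.06. None (0 of 11) passed a limma adjusted p under 0.05. At an unadjusted p under 0.05, 1 was higher and 1 lower, beside 4.71% and 4.52% of all genes. These were the neuropeptide genes Npy and Vip, both named after their values were seen. Npy had a log2 fold change of 0.17 (limma adjusted p 0.39) and Vip -0.16 (limma adjusted p 0.54). All HT values of Npy lay above its WT values, which was so for 0.703% of all genes.

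Grin3a, a glycine-binding subunit with its highest level around the period of synapse formation, had 3754, 3371, 3661, 3585 and 4039 normalised counts in HT1 to HT5. In WT1 to WT5 it had 3470, 3202, 4037, 3796 and 3936. The groups overlapped, with means of 3682 ± 245 in HT and 3688 ± 346 in WT (SD, n = 5 each). The difference on the log2 scale was 0.00 (SE 0.07). Its highest values were in HT5, WT3 and WT5. The same 3 mice had the lowest sums of 9 striatal markers such as Drd1 and Ppp1r1b, at 6526 to 7528 normalised counts against 14807 to 22863 in the other 7 mice. Grin3a was 3936 to 4039 in these 3 mice and 3202 to 3796 in the other 7, without overlap, which was so in this direction for 0.912% of all genes, while the other 5 subunit genes overlapped between these sets of mice. The split of the mice was set after their values were seen and has no test, and the part of striatal tissue in the Grin3a values was not tested.

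**Figure D5:**
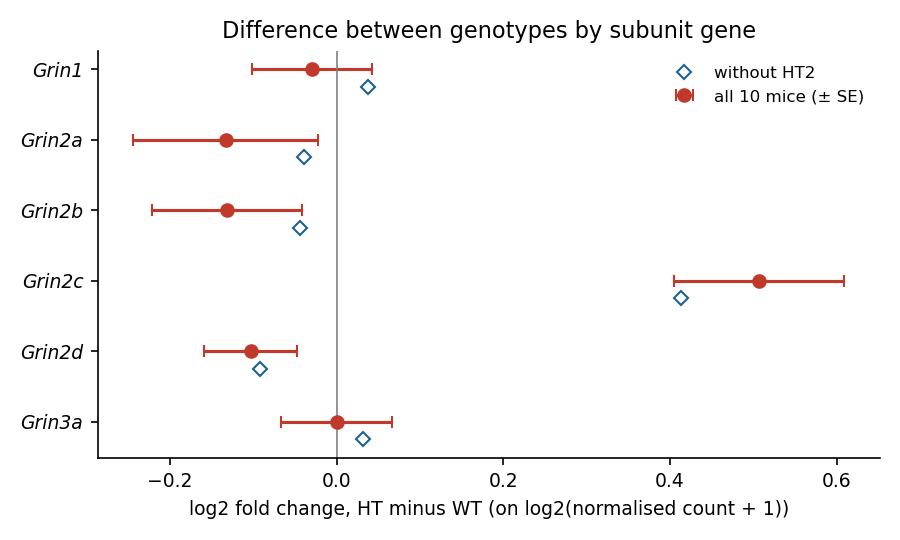
Log2 fold change of each subunit gene, HT minus WT on log2(normalised count + 1), from limma over all genes (dots with SE), and the same estimate without HT2 (diamonds). Grin2c lies at 0.51 with all mice and 0.41 without HT2, and the other 5 genes lie between -0.13 and 0.00 with all mice.

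The members were next compared with each other across mice, on log2 values of the 10 mice, for the 10 pairs of the 5 genes other than Grin2c. Grin2c was left out because its values fall into separate groups by genotype, of 5 mice each, too few for a correlation in each group alone. Grin2a and Grin2b rose and fell together (Pearson r = 0.92, permutation p = 0.00072, adjusted over 10 pairs 0.0072), and r was 0.87 without HT2 and WT4, the mice farthest from the median, and 0.91 over the 10 mice after each genotype was centred on its own mean. Spearman's rho for this pair was 0.75 (permutation p = 0.0174, adjusted 0.174). Grin1 followed Grin2b (r = 0.80, permutation p = 0.0181, adjusted 0.0639, rho = 0.45, permutation p = 0.191, adjusted 0.627) and Grin2a (r = 0.73, permutation p = 0.0192, adjusted 0.0639, rho = 0.27, permutation p = 0.448, adjusted 0.747). Both relations rest on HT2 and WT4, since r fell to 0.12 and -0.19 without them. In the other 7 pairs, all with Grin2d or Grin3a, r lay between 0.10 and 0.55, with adjusted permutation p from 0.236 to 0.794, and rho between -0.02 and 0.65, with adjusted permutation p from 0.239 to 0.973. The values of a mouse share a library and a size factor.

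HT2, the mouse with the lowest Grin1, Grin2a and Grin2b, also had the lowest sum of 10 markers of glutamatergic neurons, at 22499 normalised counts against 25820 to 28953 in WT mice. It had the highest sum of 10 microglial markers (15989, against 11157 to 12899 in WT), but HT5 was close to it at 15407. In HT5, Grin1 and Grin2a lay within the WT range and Grin2b lay below it. HT2 also had the highest sum of 8 endothelial markers (10930, against 7938 to 8617 in WT), with HT4 next at 9323. The part of these differences in makeup in the subunit values of HT2 was not tested.

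The genes most like each member in their pattern over the 10 mice were sought among 13095 protein-coding genes with a mean of at least 50, by Pearson's r on log2 values, as a description without a test. For Grin2b they were Mef2c (0.99), a neuronal transcription factor, Sel1l (0.99) and Tiprl (0.98). For Grin1 they were Atp6v0a1 (0.98), a subunit of the proton pump of vesicles, Mdh2 (0.98) and Ndrg3 (0.97), and for Grin2a they were Cadm2 (0.98), a neuronal adhesion protein, Reps2 (0.98) and Exoc3 (0.98). For Grin2c they were Cyp2j9 (0.96), D630003M21Rik (0.96), Sept2 (0.95), Ccdc189 (0.94) and Mxi1 (0.94). These 5 values include the difference between genotypes, and over the 10 mice after each genotype was centred on its own mean they were 0.86, 0.88, 0.84, 0.88 and 0.93. For Grin2d they were Sms (0.92), Tmem120b (0.92) and Mrpl21 (0.89), and for Grin3a they were Rab3d (0.96), Kcmf1 (0.95) and Ergic3 (0.92).

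Other genes of NMDA receptor signalling were followed in 4 lists, with 87 genes tested. Of these, 0 had a limma adjusted p under 0.05. At an unadjusted p under 0.05 there were 3 higher and 7 lower in HT, together 11.5% of the 87 genes beside 9.23% of all genes. Their median log2 fold change was -0.04, against -0.0035 for all genes tested.

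Among 16 genes that supply glutamate and the co-agonists, 2 were higher and 0 lower at an unadjusted p under 0.05. Over all genes these shares were 4.71% and 4.52%, and the median of the list was 0.06 on the log2 scale. Psat1, an enzyme of serine synthesis, had 2852 ± 326 normalised counts in HT and 2439 ± 125 in WT (SD, n = 5 each). Its log2 fold change was 0.22 (limma adjusted p 0.47). All its HT values lay above its WT values, which was so for 0.703% of all genes. The gene was named for having the smallest p of its list. Slc1a3, the astrocyte glutamate transporter GLAST, had a log2 fold change of 0.23 (limma adjusted p 0.52), Shmt2, which interconverts serine and glycine in mitochondria, 0.11 (0.57) and Glul, glutamine synthetase, 0.16 (0.57). Psat1, Slc1a3 and Glul are also expressed strongly by astrocytes.

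Among 25 scaffold, auxiliary and trafficking genes, 0 were higher and 3 lower at an unadjusted p under 0.05. Over all genes these shares were 4.71% and 4.52%, and the median of the list was -0.05 on the log2 scale. Shank1, a scaffold of the postsynaptic density, had 20854 ± 502 in HT and 23265 ± 1368 in WT (SD, n = 5 each). Its log2 fold change was -0.16 (limma adjusted p 0.47). Its groups did not overlap, which was so in either direction for 1.62% of all genes. Shank1 too was named for having the smallest p of its list. Lin7a and Lin7c, which link receptor cargo to the kinesin Kif17, had log2 fold changes of -0.21 and -0.13 (limma adjusted p 0.51 and 0.52). Actn2, an actin crosslinker that binds GluN1, had 0.21 (limma adjusted p 0.56).

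Among 26 kinases and phosphatases, 0 were higher and 3 lower at an unadjusted p under 0.05. Over all genes these shares were 4.71% and 4.52%, and the median of the list was -0.04. The 3 lower genes were Prkca, Prkcb and Akap9. Prkca and Prkcb, isoforms of protein kinase C, had log2 fold changes of -0.16 and -0.13 (limma adjusted p 0.47 and 0.51). Akap9, a kinase anchor that binds GluN1, had -0.14 (0.48). Camk2d, a CaM kinase II isoform, had -0.12 (0.59). Among 20 genes of signalling downstream of the receptor, 1 was higher and 1 lower, beside 4.71% and 4.52% of all genes. Their median was -0.03. Nos1, the neuronal nitric oxide synthase, had a log2 fold change of 0.13 (limma adjusted p 0.51) and the neurotrophin Bdnf -0.20 (0.54). Calm3, a calmodulin gene, had -0.10 (0.58) and Camkk2, a kinase that activates CaM kinases, -0.10 (0.596).

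Because the subunit switch is one mark of cortical maturation, genes with a known course in that period were examined beside it. Of 14 genes that rise with maturation, 0 passed a limma adjusted p or an unadjusted p under 0.05, and their median log2 fold change was -0.04. That median has no stable sign, since it was 0.05 without HT2 and -0.12 without WT4. Mbp, a myelin protein, had a log2 fold change of 0.44 (limma adjusted p 0.55), the potassium channel Kcna2 -0.13 (0.59) and the sodium channel Scn1a -0.09 (0.66). Of 12 genes that fall with maturation, 0 passed a limma adjusted p under 0.05, and 1 was higher and 2 lower at an unadjusted p under 0.05, beside 4.71% and 4.52% of all genes, with a median of -0.01. Igfbpl1, a gene of immature neurons, differed by 1.19 on the log2 scale (SE 0.48, limma adjusted p 0.51) at 178 ± 61.0 normalised counts in HT and 103 ± 106 in WT (SD, n = 5 each), and the groups overlapped, with an SD in WT that exceeded the mean. Dpysl3 and Tubb3, proteins of growing axons, had -0.23 and -0.18 (limma adjusted p 0.51 for both), and Draxin, an axon guidance protein, had 0.62 (0.599).

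The other marker lists were read in the same way, and 0 genes of any of them had a limma adjusted p under 0.05. Over all genes, 4.71% were higher and 4.52% lower at an unadjusted p under 0.05. At an unadjusted p under 0.05 there were 1 higher and 2 lower of 10 glutamatergic neuron markers (median log2 fold change -0.06), 2 higher of 10 microglial markers (0.16), 1 higher of 10 oligodendrocyte-lineage markers (0.24), and 0 of 8 endothelial markers (0.10), 0 of 9 striatal markers (0.53), 0 of 5 thalamic markers (0.24), 0 of 6 meningeal markers (0.00) and 0 of the 3 cerebellar granule cell markers that were tested (0.05). The striatal median rested on few mice and was 0.24 without WT3 and 0.81 without HT5, and the endothelial median was 0.02 without HT2. None of the marker genes measured was at 0 in any mouse. Thalamus and cerebellum are sites of strong Grin2c expression, and the sums of their markers overlapped between the genotypes, at 1208 to 2484 in HT and 1130 to 1953 in WT for thalamus and at 546 to 715 and 474 to 805 for cerebellar granule cells. HT2, the mouse with the highest Grin2c, had the highest thalamic sum (2484), of which 1772 were Calb2. Without Calb2 the thalamic sum was 712 in HT2 and 743 in HT5, the highest, with 585 to 743 in HT and 504 to 655 in WT. The part of such tissue in the Grin2c values was not tested. Neurod1 and Calb2 of these lists are also markers of cortical neurons in the lists above. Gabra6 and Barhl1, which define cerebellar granule cells, were not analysed here.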

How the data were processed

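Per the labels and the study's methods, poly-A RNA of each mouse was made into stranded libraries, the authors estimated transcript abundance with Salmon 1.1.0 against GRCm38 with correction for GC bias, summed it to genes with tximport and divided it by DESeq2 1.30.1 size factors. What was deposited is thus a signal scaled by library, in 1 column per mouse. At most 25.8% of the low values of a sample were whole multiples of 1 step (tolerance 0.02), so reads were not recovered and no count test was run. GENCODE M21 names, positions and lengths were found for 18205 of 18216 identifiers.

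Values were transformed as log2(value + 1). Genes with a mean of at least 10 (16781) were fitted with limma 3.58.1 in R 4.3.3 (lmFit, eBayes with trend), with genotype as the only factor and Benjamini-Hochberg adjustment over all genes. Neighbouring levels were compared by exact sign-flip permutation, and correlations with 100000 permutations. On simulated independent normal values (16781 genes, 5 runs) the fit found 85.3% of 200 genes set to differ by 1 log2 unit, and 4.35% of its calls were false. Smaller differences, such as the 0.51 of Grin2c, were not simulated, so the share found at such sizes is unknown. Other steps ran in Python 3.11.15 (scipy 1.17.1, numpy 2.4.6, matplotlib 3.10.9, pandas 2.3.3).

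The members and lists were chosen with earlier results of these data known. Named genes were the members and Arid1b, up to 4 genes with the smallest p in each pathway or maturation list, and the 5 (Grin2c) or 3 (other members) genes most correlated with a member; Gfap, S100b, Npy, Vip and Calb2 were named after their values were seen, and other markers as examples of their list. A gene that the rule names in the list of genes that rise with maturation is not reported here. Alternatives were other pseudocounts, filters and scalings, no variance trend, sample weights, a replicate block, other lengths and leaving out each mouse. Shares and ratios without HT2, Gfap without HT5 and the thalamic sum without Calb2 were added after seeing the data. Replicate numbers 1 to 5 occur in both genotypes, but the labels tie them to no litter or batch. Sequencing batches are not given in the sources used here.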

Additional observations from a re-analysis of the deposited data

Results flagged for a closer look

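In each genotype, 6 subunit genes, the Grin2b to Grin2a ratio and the Grin2c difference from astrocyte markers were searched for a mouse set apart from the others by a gap of over 0.71 of the range of its group. Of 16 groups 3 passed, where chance gives about 0.8. Grin2c in HT2 was 1665 normalised counts, while HT1 and HT3 to HT5 had 1142 to 1258. Grin2a in WT4 was 5023, against 6378 to 6897 in the other WT mice. The Grin2b to Grin2a ratio in HT4 was 4.88, against 5.33 to 5.46 in the other HT mice.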

How the results depend on the processing

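Under the 19 alternatives of the fit across genes, 3 or 4 genes passed the threshold, the same 3 were among them each time, and 0 of the 6 subunit genes passed. The Grin2c log2 fold change lay between 0.42 and 0.52 with all mice and between 0.41 and 0.55 when each mouse was left out. When each mouse was left out, Grin2a lay between -0.21 and -0.04, Grin2b between -0.18 and -0.04, Grin2d between -0.15 and -0.07, Grin1 between -0.07 and 0.04, Grin3a between -0.05 and 0.03, and the Grin2b to Grin2a ratio between -0.02 and 0.05. The sign differed from the main estimate under 2 of 19 alternatives for Grin1, 4 of 19 for Grin3a and 7 of 13 for the ratio. Other filters, the fit without a variance trend and the replicate block leave the fold change of a gene fixed, so they could not turn its sign. The median of the co-agonist list was 0.0088 with sample quality weights and 0.0086 to 0.096 when each mouse was left out, and without HT2 it was 0.0086. When each mouse was left out, the astrocyte median lay between 0.15 and 0.24, and the median of every other list moved by over 1.5 times under at least 1 omission, for instance oligodendrocyte lineage to 0.13 without WT3, microglia to 0.10 and thalamus to 0.14 without HT2, interneurons to 0.02 without HT1, glutamatergic neurons to -0.02, scaffolds to -0.02 and kinases to -0.0075 without HT2. Medians changed sign under 3 of 19 alternatives for the genes that rise (0.048 without HT2, 0.0059 without WT1, 0.0083 without WT2), 3 for those that fall (0.027 without WT4 and under both scalings), 1 for downstream signalling (0.010 without HT2), 3 for cerebellar markers (-0.05 without HT4, -0.10 without WT5 and with quantile normalisation) and 8 for meninges. Each replicate number has 1 mouse in each genotype, so using it as a block cannot change a fold change. The SE of the Grin2c log2 fold change was 0.07 with the block and 0.10 without it, and the same 3 genes passed. The levels per kb and the unadjusted calls in the lists were not run with the block. Correlations of same-numbered mice lay between -0.04 and 0.10, and 3 of 5 HT mice correlated best with the WT mouse of their number.

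Levels per kb depended on the length. Grin1 minus Grin2b (log2) was -2.20 with the median transcript and -0.22 with the coding sequence. Grin2a minus Grin3a was 1.27 with the median transcript, 0.335 with the coding sequence and -0.26 with the longest transcript. Grin2d minus Grin2c was 0.34, 0.44 and 0.39 in the same order. All these passed the threshold. When each mouse was left out, Grin2a minus Grin3a lay between 0.12 and 0.19, and it passed without HT2 and without HT5 (0.19 for both), and Grin2d minus Grin2c lay between 0.07 (without WT3) and 0.21 (without HT2). With WT mice only, Grin1 minus Grin2b was 0.46, Grin2b minus Grin2a 1.93 and Grin3a minus Grin2d 0.30, while Grin2a minus Grin3a was 0.22 and Grin2d minus Grin2c 0.44, with 0.0625 as the smallest exact p that 5 mice allow. Depth is unknown, so it sets no limit that can be stated here.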
